A study of Rattus norvegicus with 16 samples.

Results

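The small RNA tables of rat left ventricle list, beside named microRNAs, stretches of the genome that are named only by chromosome, start and end. These genomic small RNA loci were chosen by their names, which begin with chr, and no measured value entered the choice. There were 535 distinct loci among 1057 distinct entries in all 4 weekly tables, with 366 rat miRNAs and 156 miRNAs of other species making up the rest. The tables of weeks 2, 4 and 5 each held 386 locus rows with 385 distinct names, and the table of week 7 held 202. The genome build of the locus names, and whether their starts count from 0 or 1, is not given in the sources used here.

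The study compared 5/6 nephrectomy (5/6Nx, removal of most of the kidney mass, here by excision) with sham surgery in male Sprague Dawley rats operated on at 10 weeks of age. Left ventricles were taken 2, 4, 5 and 7 weeks after surgery, from 5/6Nx rats and from sham rats at each time. All rats, sham rats included, ate Dyets chow labelled 0.4%. Each library was made from a pool of 2 to 3 rats and each group had 2 pools, A and B, so that 16 libraries formed 8 groups. A spread between pools is therefore a spread between mixtures of rats, not between single rats. The question that the design poses is which small RNAs of the heart differ after loss of kidney mass, as in the cardiorenal syndrome named in the series title.

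MicroRNAs are cut from hairpins folded in longer transcripts: Drosha frees the hairpin in the nucleus, Dicer then cuts off its loop, and 1 of the 2 arms usually accumulates as the mature miRNA in Argonaute. The seed, bases 2 to 8 of the mature miRNA, pairs with target messages. In heart muscle miR-133a and miR-208a mark cardiomyocytes, miR-143 is abundant in smooth muscle, and miR-21 is well known from fibroblasts and rises in many models of cardiac remodelling. The libraries carried these 2 heart markers. The level of miR-208a-3p was 430.0 to 1198 CPM (counts scaled to a fixed sum of rat miRNA counts), and that of miR-133a-3p was 37187 to 67239 CPM. Another cardiomyocyte miRNA, miR-133b-3p, was low, at 11.7 to 39.5 CPM. The liver miRNA miR-122-5p was listed in 4 libraries only and reached 3.1 CPM at most. Markers of other tissues were also counted, among them miR-192-5p of kidney (1509 to 2351 CPM) and miR-150-5p of leukocytes (523.5 to 3322 CPM). In tissue libraries a change in the cells present and a change in RNA per cell cannot be told apart.

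Many of the loci carried the counts of a named miRNA, as given further below, so the mature sequences of those miRNAs are what a large part of the locus counts stands for. They are printed here for the loci that the results turn on, from RefSeq on build GRCr8, 5′ to 3′, with the seed in capitals. The loci themselves have no sequence here.
miR-22-3p, from Mir22 on the plus strand at chr10:60805387-60805408: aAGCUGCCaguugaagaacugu
miR-143-3p, from Mir143 on the minus strand at chr18:57371373-57371394: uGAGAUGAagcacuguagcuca
miR-26a-5p, from Mir26a on the plus strand at chr8:127633063-127633084: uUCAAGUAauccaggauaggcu
miR-26b-5p, from Mir26b on the plus strand at chr9:83425723-83425743: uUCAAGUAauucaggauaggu
miR-27b-3p, from Mir27b on the minus strand at chr17:1819163-1819183: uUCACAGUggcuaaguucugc
miR-21-5p, from Mir21 on the minus strand at chr10:71902653-71902674: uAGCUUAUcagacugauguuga
miR-103-3p, from Mir103a2 on the plus strand at chr3:138963278-138963300: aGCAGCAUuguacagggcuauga
miR-16-5p, from Mir16 on the plus strand at chr2:155555343-155555364: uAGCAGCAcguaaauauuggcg
miR-132-3p, from Mir132 on the plus strand at chr10:60522091-60522112: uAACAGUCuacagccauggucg
miR-361-5p, from Mir361 on the minus strand at chrX:82438506-82438527: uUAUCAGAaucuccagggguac
Of these, miR-26a-5p and miR-26b-5p share the seed UCAAGUA, and the other 8 each have a seed of their own. The hairpin of Mir143 shows the scale of a locus, with both mature arms in capitals: at chr18:57371349-57371453 RefSeq gives 105 bases on the minus strand.
Mir143 hairpin: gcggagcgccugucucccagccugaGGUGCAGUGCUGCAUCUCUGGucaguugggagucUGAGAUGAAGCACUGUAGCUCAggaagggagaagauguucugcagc
The 2 deposited loci that carried miR-143-3p counts are named with a width of 144 and of 78 bases, so that 1 is wider and 1 is narrower than this hairpin.

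The libraries differed in depth. The counts on rat miRNAs summed to between 672077 and 3509916 per library, and the counts over all entries to between 1692936 and 7946533. Both extremes of the miRNA sum were single pools, with the lowest in week 7 sham pool B and the highest in week 4 5/6Nx pool A. The 2 pools of a group were not the same library deposited again: over rat miRNAs the chi-square per degree of freedom between them ranged from 25.5 to 1522.6, and the highest value was that of week 5 sham, whose pools stood farthest apart. Calls of week 5 are therefore given with and without these pools. All tests below are edgeR quasi-likelihood F tests adjusted by Benjamini-Hochberg over all entries tested, and a difference was called at an adjusted p under 0.05.

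The locus names fell into 2 widths. In the tables of weeks 2, 4 and 5 the width (end minus start) had a median of 122 bases and ran from 72 to 377 bases. There were 116 of 385 loci with a width of 72 to 100 bases, and 33 loci exceeded 150 bases. The week 7 loci had a median of 121.5 bases and ran from 72 to 181 bases, with 64 of 202 at 72 to 100 bases. One peak of widths thus lay at about the length of a miRNA hairpin and another was wider. The 3 widest loci of weeks 2, 4 and 5 were low throughout: chr15_33078137_33078514, of 377 bases, had at most 8 counts in any library of these weeks, chr10_15584345_15584689, of 344 bases, had at most 42, and chr7_10394700_10395013, of 313 bases, had 3 to 18. The 3 narrowest were counted more: chr18_76942106_76942178, of 72 bases, had 106 to 333 counts in the same libraries. The locus chr1_221569920_221569994, of 74 bases, had 0 to 726, and chr8_54422052_54422127, of 75 bases, matched miR-34c-5p and had 0 to 259. In week 7 the widest locus, chr1_95596000_95596181, of 181 bases, was not faint, with a mean of 759.0 counts per library.

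**Figure D1:**
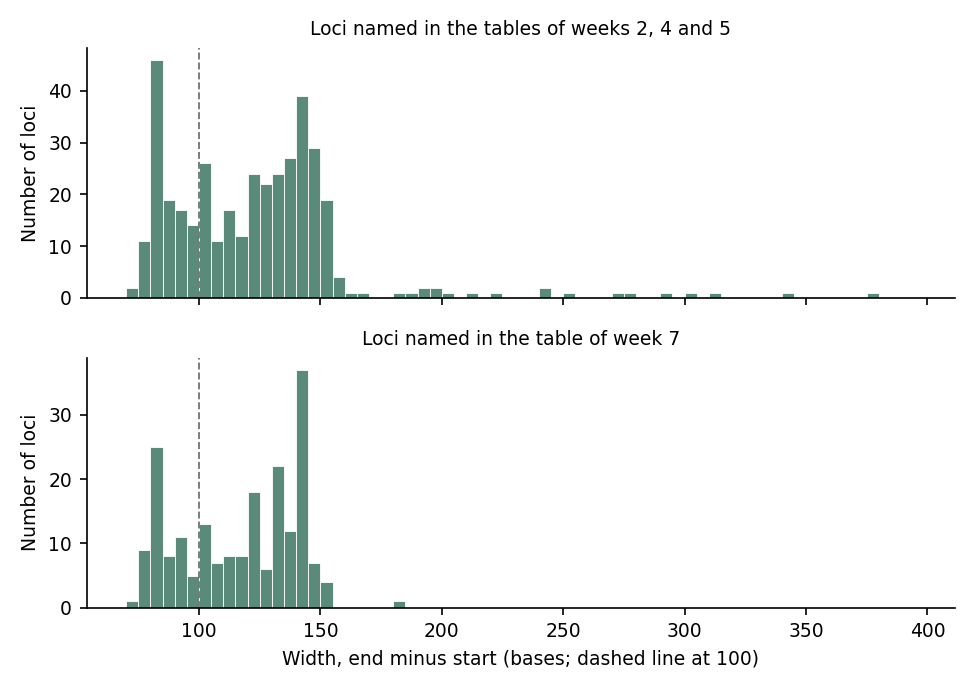
Number of loci (vertical axis) by width in bases, end minus start, in bins of 5 bases, for the tables of weeks 2, 4 and 5 (top) and of week 7 (bottom). The dashed line stands at 100 bases: 116 of 385 distinct names of weeks 2, 4 and 5 and 64 of 202 of week 7 are at or below that width. The top panel shows 384 loci, since it leaves out the locus listed in 2 rows, which is under 100 bases wide.

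Loci overlapped one another. In weeks 2, 4 and 5 the 385 loci formed 290 separate stretches, of which 210 held a single locus, 66 held 2, 13 held 3 and 1 held 4. There were 111 overlapping pairs. In week 7 the 202 loci formed 149 stretches. Loci lay on 21 chromosomes, and those with the most were chromosome 1 (47 loci in weeks 2, 4 and 5), chromosome 10 (37), chromosome X (33) and chromosome 17 (28). The largest group of neighbours, each within 10000 bases of the next, was 8 loci between 33073774 and 33089658 on chromosome 15. These 8 loci were faint, with mean counts of 4.42 to 19.2 per library.

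The week 7 table named other loci than the earlier tables, mostly by small shifts. Only 52 of its 202 names (25.7%) also stood in the earlier tables, yet 191 loci (94.6%) overlapped an earlier locus. Of the 139 that overlapped under another name, 95 had ends shifted by at most 4 bases in sum, with a median shift of 3 bases. There were 11 week 7 loci that overlapped no earlier one. Since the names differ, week 7 was tested alone, and levels in week 7 are scaled separately from those of weeks 2, 4 and 5 except among sham weeks, where all 16 libraries share 1 scaling.

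Levels spanned a wide range. As CPM of the rat miRNA library size, mean levels over the 12 libraries of weeks 2, 4 and 5 ran from 0.863 to 152594 CPM with a median of 16.8 CPM. There were 10 loci above 10000 CPM, 39 between 1000 and 10000, 66 between 100 and 1000, 108 between 10 and 100, and 161 at or below 10 CPM. The 10 most counted loci of each library held between 82.2% and 92.1% of its locus counts. All loci together held between 27.7% and 49.1% of the counts over all entries, depending on the library. A few stretches thus set nearly the whole locus signal, and the typical locus was faint.

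The 10 loci above 10000 CPM lay at 5 miRNAs, each with a wide and a narrow locus. The wide locus chr10_62782695_62782837, 142 bases, averaged 152594 CPM and matched miR-22-3p, a miRNA abundant in muscle and required for the hypertrophic response in mice. The wide locus chr18_57625095_57625239, 144 bases, averaged 117943 CPM and followed miR-143-3p in some libraries only, as given below. The locus chr9_22142870_22142978, 108 bases, averaged 60339 CPM and followed miR-30a-5p in most libraries. The loci chr8_123981612_123981720, 108 bases and 51857 CPM, and chr17_7351429_7351565, 136 bases and 46172 CPM, matched miR-26a-5p and miR-27b-3p. Next in level, at 5685 CPM, came chr10_74864475_74864611, 136 bases, which matched miR-21-5p. Matching here means that the count of the locus was a fixed multiple, within 10%, of the count of the miRNA.

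That match held for many loci. Of 229 loci with a mean count of 20 or more in weeks 2, 4 and 5, 63 were a fixed multiple of a rat miRNA in every one of the 12 libraries and 29 more were so in each library where they were not at 0. These 92 loci matched 62 distinct miRNAs at a median ratio of 0.964, and they held 50.4% of all locus counts. RefSeq places the matched miRNA on the chromosome of the locus for 76 of the 78 loci whose miRNA it lists. In week 7, where 4 libraries give a looser match, the matched miRNA was on the chromosome of the locus for 47 of 96 loci, and week 7 matches are therefore named below only where the chromosome is the same or the earlier tables name the same stretch. The 2 exceptions of weeks 2, 4 and 5 were a chromosome 10 locus matching miR-103-3p and a chromosome X locus whose counts tracked miR-24-2-5p. The counts of these loci were thus nearly those of the miRNA entries, and they are not a separate measurement.

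The spacing of the loci also matched that of the hairpins. For 9 pairs of matched hairpins within 10000 bases of each other, the distance between locus midpoints was set against the distance in GRCr8, each distance taken within its own build. For 8 of the 9 pairs the distances differed by at most 6.0 bases, and the median difference over all 9 was 2.0 bases. Mir222 and Mir221 were 562.0 bases apart by locus names and 564.0 bases apart in GRCr8. Mir127 and Mir136 were the exception, 2659 bases apart by locus names and 2874 bases apart in GRCr8. Locus widths bracketed the hairpins: the hairpins had a median of 86.0 bases, against a median of 83.0 bases for the 31 matched loci up to 100 bases wide and 132.5 bases for the 42 wider ones.

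Overlapping wide and narrow loci most often had the same count, or a count at the wide locus and a 0 at the narrow one. Of 82 pairs with a narrow locus inside a wide one in weeks 2, 4 and 5, 13 had equal counts in every library where the wide locus was counted. A further 33 pairs were equal in some libraries and had the narrow locus at 0 in the others, and the remaining 36 also held unequal counts. Over all pairs and libraries 50.9% of the comparisons were equal, 21.7% had the narrow locus at 0 and 27.4% were unequal. In week 7 the 51 pairs divided into 12, 18 and 21. Within the pairs that were equal or 0, the narrow locus was at 0 in 30.0% to 45.2% of pairs in 5/6Nx libraries and in 26.7% to 45.5% in sham libraries of weeks 2, 4 and 5. The ranges of the 2 surgeries overlapped.

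The miR-22-3p pair shows the pattern at the highest level. At week 2 the narrow locus chr10_62782730_62782812, 82 bases, had 134657 and 184016 counts in the 5/6Nx pools, against 0 and 0 in the sham pools. The wide locus that encloses it had 134657 and 184016 counts in the 5/6Nx pools, against 262900 and 500079 in the sham pools. The miRNA entry miR-22-3p itself had 136219 and 186331 counts in the 5/6Nx pools, against 265525 and 505191 in the sham pools. The narrow locus therefore read as present after 5/6Nx and absent after sham, while the wide locus and the miRNA were higher in the sham pools. At week 5 the narrow locus was at 0 in 5/6Nx pool B alone.

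The wide miR-22-3p locus itself was lower after 5/6Nx at week 2, without passing the threshold. Its level was 98522 and 100619 CPM in the 5/6Nx pools, against 148259 and 170137 CPM in the sham pools, and the groups did not overlap. The log2 change was -0.68 ± 0.12 (SE), with an adjusted p of 0.0506 by edgeR. It passed at a minimum count of 50 (adjusted p = 0.0482), by DESeq2 (4.06e-07) and without week 2 sham pool A (0.0277) or either week 5 sham pool (0.0173 and 0.0346), and the other alternatives lay between 0.0632 and 0.26. At week 4 the log2 change was -0.06 ± 0.12 and at week 5 it was 0.03 ± 0.12, so the lower level was seen at week 2 and the later weeks lay near 0.

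The miR-143-3p loci changed between a high and a low state. At week 4 the wide locus chr18_57625095_57625239 had 2583 and 1534 counts in the 5/6Nx pools, against 316055 and 471892 in the sham pools. The narrow locus chr18_57625125_57625203 had 0 and 0 counts in the 5/6Nx pools, against the same 316055 and 471892 in the sham pools. The miRNA entry miR-143-3p had 692426 and 386324 counts in the 5/6Nx pools, against 328198 and 489114 in the sham pools. The miRNA was thus abundant in all 4 pools while both loci were low or at 0 after 5/6Nx. Low counts occurred in pools of both surgeries over the weeks: the wide locus had 266603 and 1708 counts in the 5/6Nx pools against 338939 and 440127 in the sham pools at week 2, and 2460 and 670508 in the 5/6Nx pools against 1951 and 664547 in the sham pools at week 5. At week 7 it had 406799 and 393286 counts in the 5/6Nx pools, against 695 and 172622 in the sham pools. The fitted log2 change at week 4 was -8.11 ± 3.67 with an adjusted p of 0.999 by edgeR.

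**Figure D2:**
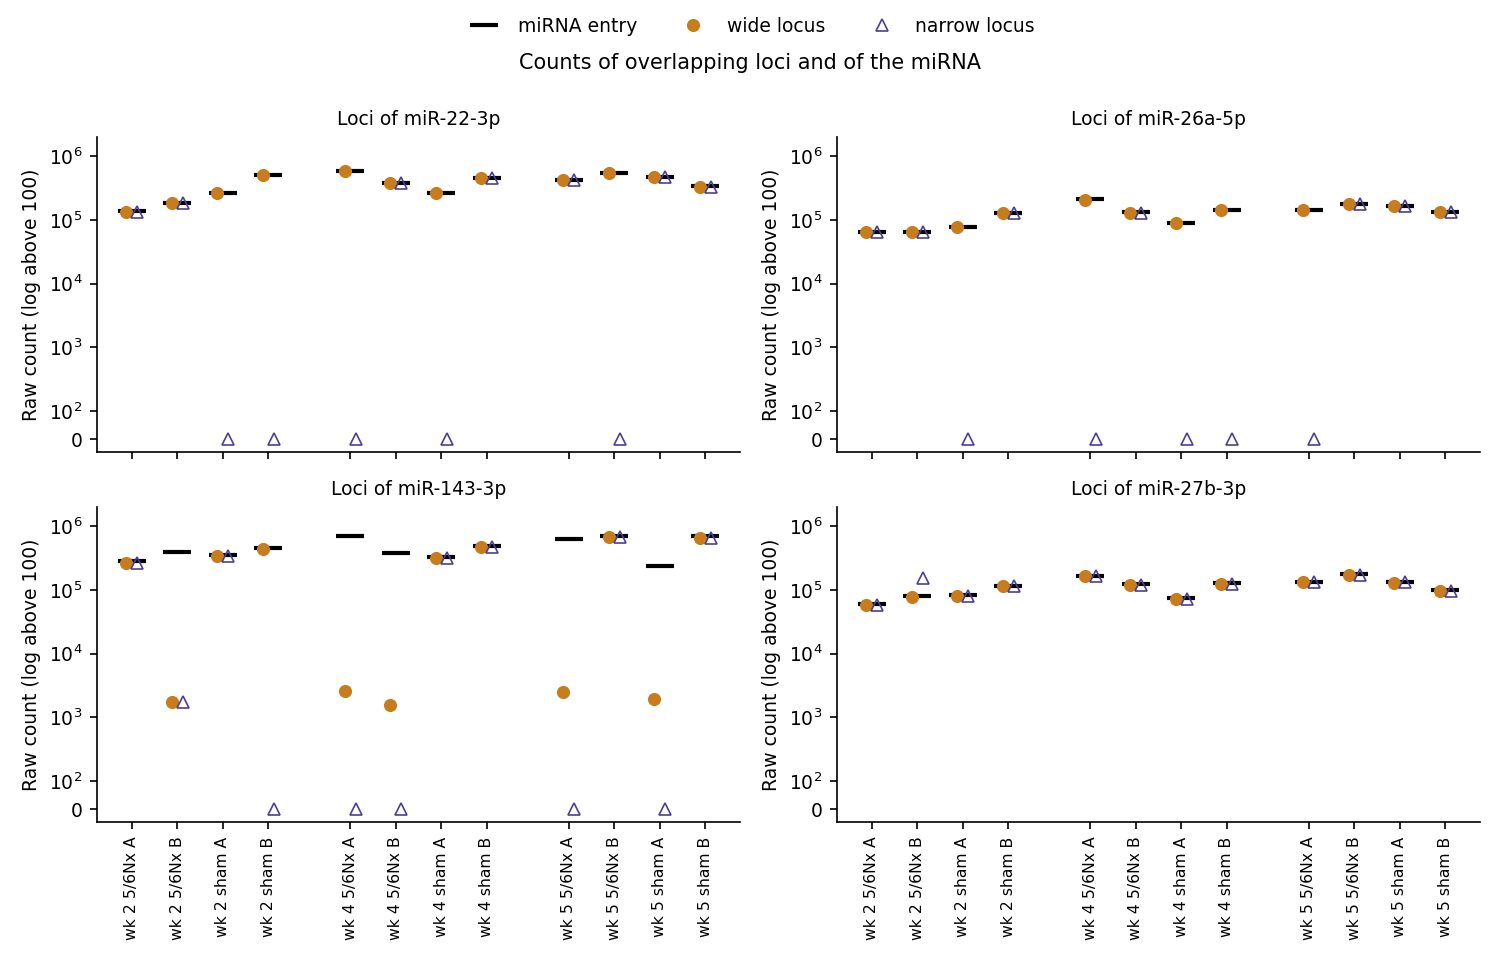
Raw counts (vertical axis, linear up to 100 and on a log scale above) of the wide locus (circles), the narrow locus inside it (triangles) and the miRNA entry (bars) in each library of weeks 2, 4 and 5 (horizontal axis), for 4 miRNAs. Wide loci of miR-22-3p, miR-26a-5p and miR-27b-3p follow the miRNA in each library. Narrow loci of miR-22-3p, miR-26a-5p and miR-143-3p drop to 0 in some libraries. The wide miR-143-3p locus falls to 2583 counts or fewer in 5 libraries. The narrow miR-27b-3p locus stands above the miRNA in week 2 5/6Nx pool B.

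The same was seen across loci when each was set against a miRNA of its own chromosome. For 102 loci, at least 6 of the 12 libraries of weeks 2, 4 and 5 shared 1 ratio to a miRNA within 5%, at a median ratio of 0.96. This definition was chosen after the data were seen. Of the 1224 combinations of locus and library, 80.1% lay at the shared ratio, 7.43% were at 0 and the remaining 12.5% lay at other ratios. At the 91 combinations at 0 the miRNA had between 18 and 692426 counts. Of these, 50 were in 5/6Nx libraries and 41 in sham libraries, which are 6 libraries each. A 0 at such a locus therefore stood beside a counted miRNA in every case.

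Some loci jumped by other factors. The chromosome 10 locus chr10_76049260_76049386 had 109 and 126 counts in the 5/6Nx pools and 112 and 235 in the sham pools of week 2, close to miR-142-3p, with 117 and 142 counts in the 5/6Nx pools and 130 and 258 in the sham pools. At week 5 the same locus had 1095 and 1963 counts in the 5/6Nx pools and 1423 and 842 in the sham pools, while miR-142-3p had 119 and 198 in the 5/6Nx pools and 119 and 123 in the sham pools. At week 4 pool A of both surgeries was high and pool B was low. The locus chr4_63815364_63815498 followed miR-490-3p except in week 5 5/6Nx pool A, where it had 10 counts, miR-490-3p had 969 and miR-490-5p, from the other arm of the hairpin, had 10. The locus chr9_22142870_22142978 usually held 0.912 of the count of miR-30a-5p. At week 4 it had 134204 and 104705 counts in the 5/6Nx pools and 59365 and 102659 in the sham pools, where miR-30a-5p had 268701 and 184484 in the 5/6Nx pools and 119562 and 188755 in the sham pools. Its ratio to the miRNA was thus between 0.497 and 0.568 in all 4 pools of week 4, whatever the surgery.

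**Figure D3:**
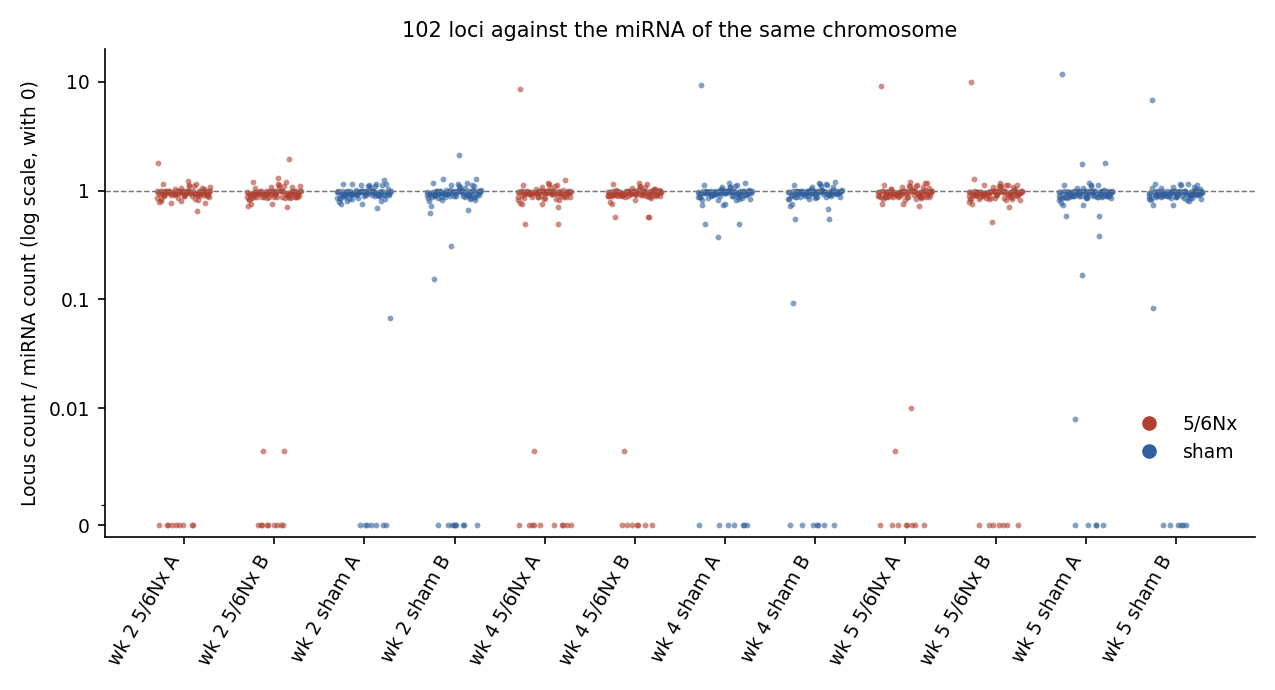
Count of each of 102 loci divided by the count of the matching miRNA of the same chromosome (vertical axis, log scale with 0 added) in the 12 libraries of weeks 2, 4 and 5 (horizontal axis; 5/6Nx in red, sham in blue). Most points form a band near 1, a row at 0 holds 91 points, and 1 locus stands near 10 in 6 libraries.

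Copies of 1 miRNA at different places shared their counts. In mammals miR-103 is made from a pair of gene copies inside pantothenate kinase genes. The loci chr10_20694990_20695140 and chr3_118996574_118996710 differed by at most 1 count in each of the 10 libraries in which both were counted, and their mean counts matched miR-103-3p. At week 5 the chromosome 10 locus had 3955 and 5064 counts in the 5/6Nx pools and 3687 and 4279 in the sham pools. The chromosome 3 locus had the same 3955 and 5064 counts in the 5/6Nx pools, but 0 and 0 in the sham pools, where miR-103-3p had 3518 and 3980. In weeks 2, 4 and 5, 3 pairs of loci in different places had such matching counts, and in week 7 there were also 3.

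Counts of a locus also stood at about 2 times those of its partner. In 3 overlapping pairs whose counts otherwise agreed within 5% in most libraries, 5 combinations had a ratio between 2.0 and 2.04. For the chromosome 17 pair matching miR-27b-3p, week 2 5/6Nx pool B had 155513 counts at the narrow locus chr17_7351451_7351538, against 77347 at the wide locus that encloses it. The miRNA entry had 79362 counts in that library. Both other pairs are on chromosomes 10 and X, and the chromosome X pair bears on a called change given below.

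Zeros in both pools of a group were counted for every week. At week 2, 13 of 384 loci were at 0 in both 5/6Nx pools with over 3 counts in both sham pools. In the other direction, 9 were at 0 in both sham pools with over 3 counts in both 5/6Nx pools. At week 4 there were 2 and 9 such loci of 384, at week 5 there were 7 and 10 of 384, and at week 7 there were 2 and 7 of 202. The share of such cases over all entries is not given here. Overlapping loci can repeat the same counts: chr3_118996574_118996710 and chr3_118996606_118996685 both had 3955 and 5064 in the 5/6Nx pools against 0 and 0 in the sham pools at week 5. Of these 59 cases, 22 had an overlapping locus, and in 16 of the 22 the overlapping locus was counted in both pools of the group at 0. Both directions occurred at every week. With 0 counts in 2 pools a level of up to 3 counts over the group is allowed, and this covers counting error only.

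Among these, a pair of narrow loci at other miRNAs showed what the narrow miR-22-3p locus showed at week 2. At week 5 the narrow miR-26b-5p locus chr9_73734064_73734144 had 9694 and 13306 counts in the 5/6Nx pools, against 0 and 0 in the sham pools, while the wide locus around it had 9694 and 13306 in the 5/6Nx pools, against 14593 and 10201 in the sham pools. At week 7 the narrow locus chr7_105815918_105815998 had 1061 and 818 counts in the 5/6Nx pools against 0 and 0 in the sham pools, while its wide partner had 1061 and 818 in the 5/6Nx pools against 616 and 391 in the sham pools. In both cases the wide locus was counted in all 4 pools. Some well-counted cases had no partner counted in the group at 0. At week 2 chr9_22162634_22162716 had 0 and 0 counts in the 5/6Nx pools against 353 and 683 in the sham pools. The wide locus around it had 0 and 0 in the 5/6Nx pools against 353 and 0 in the sham pools. At week 4 chrX_139740934_139741014, with no overlapping locus, had 408 and 304 counts in the 5/6Nx pools against 0 and 0 in the sham pools. Further cases had no partner and few counts: chr17_62932793_62932943 had 27 and 29 counts in the 5/6Nx pools against 0 and 0 in the sham pools at week 2, and 39 and 30 in the 5/6Nx pools against 0 and 0 in the sham pools at week 4. At week 5 it had 68 and 0 counts in the 5/6Nx pools against 0 and 89 in the sham pools, so it no longer separated the surgeries.

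The authors' deposited table of comparisons called such loci. Over the 4 weeks it gave an adjusted p under 0.05 for 32 loci among 40 entries, and 25 of the 32 loci were at 0 in both pools of a group. Only 4 of the 32 were counted in all 4 libraries of the week. In the authors' deposited table the adjusted p of chr10_62782730_62782812 at week 2 was 1.79e-137, and that of the wide miR-143-3p locus at week 4 was 4.63e-296. These are the narrow miR-22-3p locus and the miR-143-3p locus whose counts are given above.

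The comparison of 5/6Nx with sham by edgeR called few loci. At week 2, 3 of 340 loci passed, 2 higher and 1 lower after 5/6Nx, where 0.381% of all 788 entries tested passed. At week 4 no locus passed by edgeR, where 0.0% of all entries passed. An unadjusted p under 0.05 was reached by 7 of 340 loci, against 3.81% of all entries. DESeq2 called 13 at week 4 and limma-voom called 0. At week 5, 3 of 340 loci passed, 2 higher and 1 lower, where 0.381% of all 788 entries passed. At week 7, 2 of 169 loci passed, both higher, where 0.621% of all 483 entries passed. At an unadjusted p under 0.05 there were 33 of 340 loci at week 2, against 12.9% of all entries. There were 20 of 340 at week 5, against 6.35% of all entries, and 46 of 169 at week 7, against 25.3%. Leaving out 1 pool moved these counts: 9 loci passed at week 2 without 5/6Nx pool B, 17 and 8 at week 5 without sham pool B and sham pool A, and 9 at week 7 without sham pool B. Shares of all entries under DESeq2 and with 1 pool left out are not given here. With all pools, the 3 entries that passed by edgeR at week 2 and the 3 at week 5 were the loci themselves. At week 7 the 2 loci were among 3 entries, so the background shares are made mostly of the loci. The median log2 change of the loci was -0.01 at week 2, -0.06 at week 4, -0.06 at week 5 and -0.05 at week 7, against 0.00, -0.06, -0.05 and -0.04 over all entries.

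Most loci that could be followed in every pool moved little. Of the tested loci counted in all 4 libraries, 184 at week 2, 217 at week 4, 221 at week 5 and 130 at week 7, the share with a log2 change between -1 and 1 was 94.0%, 91.2%, 87.3% and 90.0%. At week 2, 89 of them were higher and 95 lower after 5/6Nx, and at week 7, 60 were higher and 70 lower. The pools of the 2 surgeries did not overlap for 147 of 340 loci (43.2%) at week 2, where 49.2% of all entries did not overlap, and for 99 of 169 (58.6%) at week 7, where the background was 57.8%. At weeks 4 and 5 the loci stood at 36.2% and 28.8%, against backgrounds of 40.0% and 31.9%. The loci were at or a little below the background at weeks 2, 4 and 5.

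**Figure D4:**
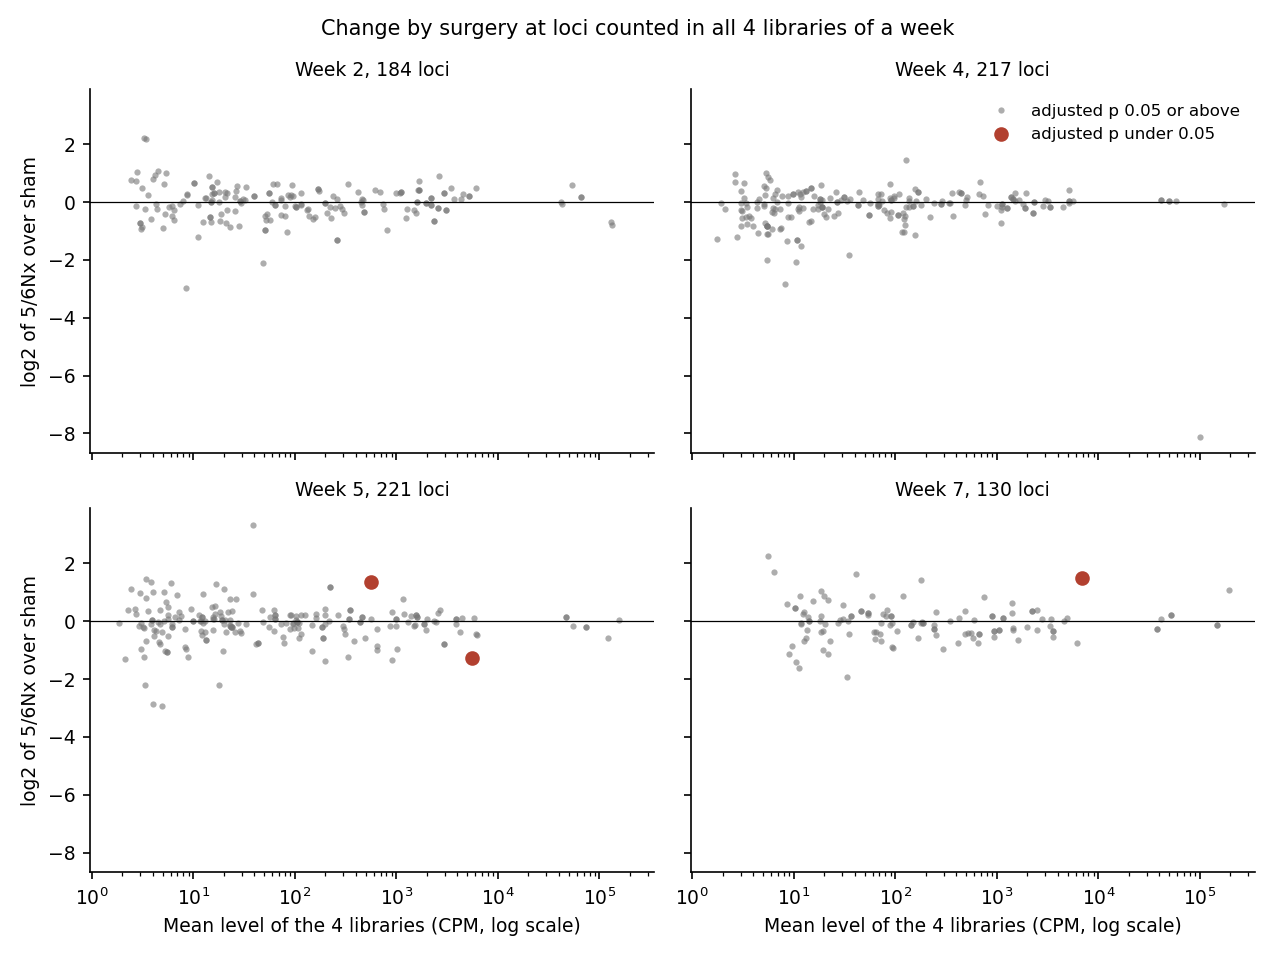
Fitted log2 of 5/6Nx over sham (vertical axis) against the mean level of the 4 libraries in CPM (horizontal axis, log scale) for tested loci counted in all 4 libraries of week 2, 4, 5 or 7. Red points passed an adjusted p of 0.05: 2 at week 5 and 1 at week 7. The lowest point, at week 4, is the wide miR-143-3p locus at -8.11.

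All 3 loci called at week 2 were at 0 in a group. The narrow locus chrX_101800135_101800220, whose counts followed miR-361-5p at a ratio of 0.926 in 7 libraries, had 0 and 0 counts in the 5/6Nx pools, against 101 and 206 in the sham pools. It was at least 65.9-fold lower after 5/6Nx, taking 3 counts over the group (adjusted p = 0.00174, edgeR). The wide locus around it had 72 and 54 counts in the 5/6Nx pools against 101 and 206 in the sham pools, with a log2 change of -0.63 ± 0.32 and an adjusted p of 0.468 by edgeR. The loci chr10_56858009_56858151, with 11 and 14 counts in the 5/6Nx pools against 0 and 0 in the sham pools, and chr7_121184754_121184845, with 17 and 11 counts in the 5/6Nx pools against 0 and 0 in the sham pools, rested on few counts. They were at least 12.9-fold and 14.5-fold higher after 5/6Nx, taking 3 counts over the sham group. Their adjusted p-values were 0.0247 and 0.0414 by edgeR. The locus overlapping chr7_121184754_121184845, chr7_121184748_121184855, had 17 and 11 counts in the 5/6Nx pools against 0 and 15 in the sham pools. The stretch was therefore counted in sham pool B. The first call was lost under 7 alternatives and the second under 11, among them limma-voom (0.269 and 0.321), the 4 libraries of the week alone (0.12 and 0.26) and leaving out week 2 5/6Nx pool A (0.0613 and 0.0657) or week 2 sham pool B (0.084 and 0.131). The call of chrX_101800135_101800220 was lost under limma-voom (0.269) and with the 4 libraries alone (0.0696).

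At week 5 the called locus of highest change was the chromosome 3 copy of miR-103-3p given above, at least 2579-fold higher after 5/6Nx, taking 3 counts over the sham group (adjusted p = 3.49e-07, edgeR). Its chromosome 10 copy, with equal counts in the 5/6Nx pools, was counted in all 4 pools. Leaving out either week 5 sham pool kept the call (1.57e-07 without pool A and 3.31e-07 without pool B).

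The second locus called at week 5 was chrX_88378167_88378293, of 126 bases. It had 2090 and 2942 counts in the 5/6Nx pools, against 841 and 757 in the sham pools, which are 808 ± 46 and 312 ± 22 CPM (SD, n = 2 pools each). The log2 change was 1.37 ± 0.13 with an adjusted p of 0.00533 by edgeR. The narrow locus inside it, chrX_88378192_88378271, had 1032 and 1456 counts in the 5/6Nx pools against 808 and 737 in the sham pools, with a log2 change of 0.40 ± 1.70 and an adjusted p of 1.0. The wide count was 2.025 and 2.021 times the narrow count in the 5/6Nx pools of week 5, while the pair agreed within 5% in 8 of the 11 libraries where both were counted. The 2 pools in which the wide locus was called higher were thus pools in which its count was about 2 times that of its partner. Such a ratio also stood in week 2 5/6Nx pool B, with 922 counts at the wide locus and 452 at the narrow one. Which of the counts had moved was not tested. The call of the wide locus was lost under 2 of the alternatives. Without week 5 5/6Nx pool B the adjusted p was 0.0548, and without sham pool A or B it was 0.0257 or 0.017.

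The third was chr3_57340834_57340984, of 150 bases, the only locus called lower at week 5. It had 8123 and 12541 counts in the 5/6Nx pools, against 21152 and 19267 in the sham pools, which are 3296 ± 401 and 7890 ± 624 CPM (SD, n = 2 pools each). The log2 change was -1.26 ± 0.16 with an adjusted p of 0.0215 by edgeR. At week 2 the change had the other sign, 0.47 ± 0.16 (adjusted p = 0.264), with 3994 ± 185 CPM in the 5/6Nx pools and 2888 ± 315 CPM in the sham pools. At week 4 the pools overlapped, at 5648 ± 348 CPM after 5/6Nx and 5503 ± 882 CPM after sham. The interaction of surgery and week over weeks 2, 4 and 5 had an adjusted p of 0.0534 at this locus. Its call at week 5 was lost under 14 of the alternatives, among them every other scaling (adjusted p 0.0508 to 0.113) and leaving out week 5 sham pool A (0.0512), while it held without week 5 sham pool B (0.0265).

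A locus named 1 base further along, chr3_57340835_57340985, had far fewer counts and moved the same way at weeks 5 and 7 without passing. It had 1154 and 1691 counts in the 5/6Nx pools against 1785 and 2367 in the sham pools of week 5 (log2 change -0.86 ± 0.27, adjusted p = 0.76). At week 7 it had 508 and 444 counts in the 5/6Nx pools against 490 and 381 in the sham pools, and the levels, 310.6 ± 22.0 and 523.3 ± 39.2 CPM, did not overlap (log2 change -0.75 ± 0.11, adjusted p = 0.0822). These loci, 1 base apart in their names, thus held different counts, whereas chr1_56486962_56487048 and chr1_56486962_56487047, also 1 base apart, were equal in 11 of 12 libraries of weeks 2, 4 and 5.

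At week 7 the called locus counted in all pools was chr10_74864476_74864610, of 134 bases, which carried the counts of miR-21-5p. It had 18099 and 13652 counts in the 5/6Nx pools, against 3564 and 2568 in the sham pools, where miR-21-5p had 18126 and 13712 counts in the 5/6Nx pools and 3636 and 2563 in the sham pools. The level was 10272 ± 343 CPM after 5/6Nx and 3659 ± 78 CPM after sham (SD, n = 2 pools each). The log2 change was 1.49 ± 0.06, or 2.81-fold, with an adjusted p of 0.00997 by edgeR. Leaving out a 5/6Nx pool of week 7 ended the call, with an adjusted p of 0.107 without pool A and 0.0668 without pool B, and the log2 change then lay at 1.47 and 1.499.

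The miR-21-5p locus of the earlier tables, chr10_74864475_74864611, lies 1 base wider at each end. At week 2 it had 10615 and 11743 counts in the 5/6Nx pools against 9300 and 14624 in the sham pools, and its levels, 7094 ± 951 and 5110 ± 190 CPM, did not overlap. The log2 change was 0.47 ± 0.18 at week 2 (adjusted p = 0.324), 0.41 ± 0.18 at week 4 (0.999) and 0.10 ± 0.18 at week 5 (1.0). None of these passed by edgeR. The difference between week 7 and the earlier weeks was not tested for these loci, since their names differ.

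The other locus called at week 7 was the narrow chr7_105815918_105815998 given above, at least 365-fold higher after 5/6Nx, taking 3 counts over the sham group (adjusted p = 0.00997, edgeR). At 0 in both sham pools, it passed the count filter of that fit only through the 5/6Nx pools. The call therefore adds no support beyond the counts themselves. Its wide partner was counted in all 4 pools. The call was lost without week 7 5/6Nx pool A (0.122) or pool B (0.0777). In the tables of weeks 2, 4 and 5 the overlapping loci matched miR-30b-5p, and there the wide and the narrow locus had equal counts in all 12 libraries.

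Over all 4 weeks 1 of 51 loci named in every table passed for the mean of the weekly differences, where 3.5% of 457 entries passed and 2.63% passed as higher. Those were 12 entries higher and 4 lower after 5/6Nx, while with TMM scaling on the loci alone 6 were higher and 8 lower. At an unadjusted p under 0.05 there were 7 loci, against 19.7% of entries. The called locus, higher after 5/6Nx, was chr10_62480717_62480837, of 120 bases, which followed miR-132-3p, a miRNA that promotes cardiomyocyte hypertrophy in mice. It had 31 and 36 counts in the 5/6Nx pools against 27 and 32 in the sham pools of week 2, 65 and 58 after 5/6Nx against 26 and 31 after sham at week 4, 60 and 66 after 5/6Nx against 54 and 32 after sham at week 5, and 104 and 86 after 5/6Nx against 23 and 11 after sham at week 7. Counts were low, yet at weeks 2, 4 and 7 the levels of the surgeries did not overlap. The mean log2 change was 0.83 ± 0.14, or 1.77-fold, with an adjusted p of 0.00927 by edgeR, and it stayed past the threshold under each alternative tried.

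By week the log2 change of the miR-132-3p locus was 0.70 ± 0.27 at week 2, 0.59 ± 0.27 at week 4, 0.32 ± 0.27 at week 5 and 1.64 ± 0.24 at week 7, with adjusted p-values of 0.324, 0.999, 0.85 and 0.0822. At week 7 the level, scaled within that week, was 61.8 ± 2.0 CPM after 5/6Nx and 19.6 ± 5.2 CPM after sham (SD, n = 2 pools each). No single week passed by edgeR. The interaction of surgery and week at this locus had an adjusted p of 0.264.

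**Figure D5:**
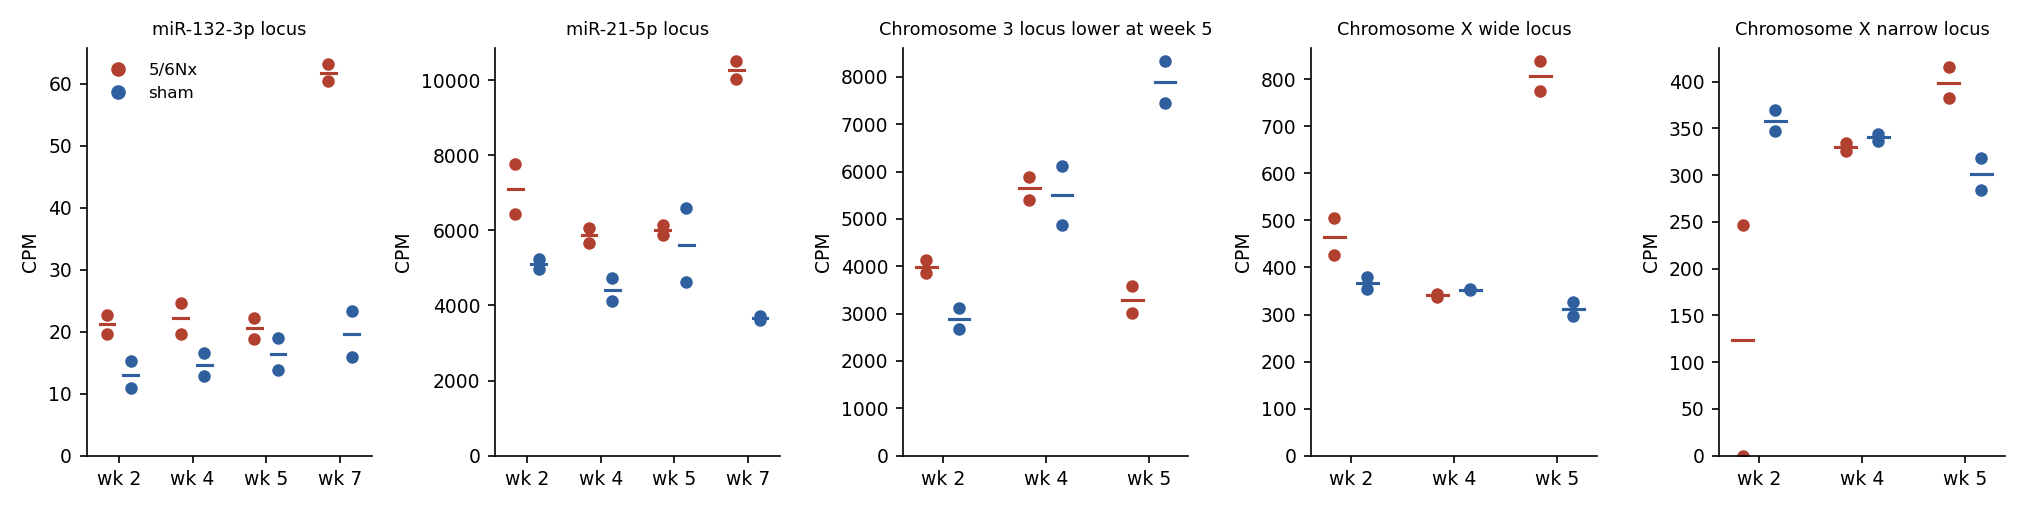
Level in CPM of rat miRNA library size (vertical axes, each from 0) by week for the miR-132-3p locus, the miR-21-5p locus, the chromosome 3 locus called lower at week 5, and the wide and narrow chromosome X loci. Points are pools, bars are the mean of 2 pools, 5/6Nx is red and left of sham in blue, and week 7 is scaled on its own. The miR-21-5p locus reads 10029 and 10514 CPM after 5/6Nx against 3604 and 3714 CPM after sham at week 7, and the chromosome X wide locus is raised at week 5 beyond its narrow partner.

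The interaction of surgery and week passed for 0 of the 51 loci by edgeR, where 0.875% of 457 entries passed. Of the 51 loci, 7 were at an unadjusted p under 0.05, against 15.3% of all entries. DESeq2 called 4 of the 51 and limma-voom called 0, and the share of all entries that DESeq2 called is not given here. Over weeks 2, 4 and 5, where 340 loci could be tested, 2 loci passed, against 0.254% of 788 entries. They were the chromosome 3 copy of miR-103-3p and the narrow miR-361-5p locus. Both are at 0 in both pools of a group. Of the 340 loci, 20 were at an unadjusted p under 0.05, against 7.23% of all entries.

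Differences between weeks among the sham groups passed for 7 of 51 loci, where 24.1% of all entries passed. Of the 51 loci, 14 were at an unadjusted p under 0.05, against 39.8% of all entries. Week is also the table and the library set, so age, time after surgery and preparation cannot be told apart. The chromosome 1 locus matching miR-192-5p, chr1_209040238_209040380, averaged 1338.9 ± 221.0 CPM at week 2, 1809.5 ± 20.5 CPM at week 4, 1998.6 ± 136.3 CPM at week 5 and 2487 ± 16 CPM at week 7 among sham pools, with all 16 libraries scaled together (SD, n = 2 pools each; adjusted p = 0.00232, edgeR). The chromosome 10 locus matching miR-497-5p, chr10_57073806_57073948, averaged 506 ± 38, 378 ± 52, 310 ± 143 and 176 ± 14 CPM in the same order (adjusted p = 0.00807, edgeR). The miR-192-5p locus was thus highest at week 7 and the miR-497-5p locus lowest. The locus with the smallest p was chrX_139740786_139740910 (adjusted p = 0.00107, edgeR). It averaged 253.1 ± 43.6, 154.1 ± 6.0, 137.5 ± 17.6 and 337.6 ± 34.6 CPM at weeks 2, 4, 5 and 7, so its order by week was not a steady one.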

How the data were processed

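Small RNA libraries (TruSeq kit, Illumina HiSeq, per the labels' protocols) were made from pools of 2 to 3 rats. The authors deposited raw counts per entry in 1 table for each week and, per the submitters' processing notes, used cutadapt, Bowtie and DESeq. The build, the annotation and the definition of a locus: not given in the sources used here. The deposited tables also give the authors' p-values and log2 fold changes. A deposited table of mapping rates in percent was not used, since its rows were not joined to the pools. One locus listed in 2 rows with different counts was left out, which leaves 384 loci in weeks 2, 4 and 5.

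Counts were tested with edgeR 4.0.16 in R 4.3.3 (quasi-likelihood F test, TMM library sizes from rat miRNA entries, minimum count of 10, Benjamini-Hochberg adjustment over all entries tested). The code was run on simulated counts whose spread was set lower than that of the data. The fitted common dispersion, a measure of spread between pools, was 0.551 for the 12 libraries and 0.283 for week 7. It was 0.125 for the fit of 16 libraries, lower than in the fits of single weeks' changes. That run therefore does not show how the test performs on these data. Weeks 2, 4 and 5 shared 1 fit of 12 libraries, and week 7, whose table mostly names other loci, was fitted on its own 4 libraries. The mean over weeks, its interaction and the sham weeks used 16 libraries and the entries in all 4 tables. Library sizes of weeks 2, 4 and 5 and of week 7 were scaled separately. Alternatives were DESeq2 1.42.0, limma-voom (limma 3.58.1), other scalings and filters, the 4 libraries of a week alone, loci alone, a block by pool letter and leaving out each pool. Nothing says that the pool letters pair samples. The p-values measure the spread between pools.

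Named loci were those past the threshold or with the smallest p in each comparison, the most abundant, widest and narrowest loci, those at 0 in both pools of a group, and those that overlap another locus or repeat a rat miRNA. Members and lists were chosen with earlier results of these data known.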

Additional observations from a re-analysis of the deposited data

Results flagged for a closer look

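For 2 loci the change by surgery differed between weeks 2, 4 and 5 in the edgeR interaction test of surgery and week, adjusted over 788 entries. The locus chr3_118996574_118996710, a copy of miR-103-3p, had an adjusted p of 1.58e-06. Its counts were 3955 and 5064 in the 5/6Nx pools against 0 and 0 in the sham pools at week 5, while it was counted in all 8 pools of weeks 2 and 4. The narrow locus chrX_101800135_101800220, which followed miR-361-5p, had an adjusted p of 0.00429. Its counts were 0 and 0 in the 5/6Nx pools against 101 and 206 in the sham pools at week 2. In both cases a locus of the same counts elsewhere, or the wide locus around it, was counted in the pools at 0.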

How the results depend on the processing

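No single locus changed direction under the alternatives tried, but the split of all entries called for the mean of weeks did: 12 higher and 4 lower, against 6 higher and 8 lower with TMM on the loci alone. The number of loci called moved by over 1.5 times as follows. The share of all entries called under each alternative is not given here. These counts therefore do not show whether the loci moved more than other entries did. DESeq2 called 25 loci at week 2, 13 at week 4, 15 at week 5, 37 at week 7, 3 for the mean of weeks, 4 for the interaction and 18 among sham weeks. Limma-voom called 0 at week 2. The fit of all 16 libraries called 0 at week 2 and 0 at week 5, but it holds only the 51 loci named in all 4 tables, none of which was called at those weeks. The 4 libraries of the week alone called 3 at week 4, and a minimum count of 50 called 9 at week 7. Collapsing repeated entries left 1 at week 2 and 2 among sham weeks, and testing loci alone left 4 among sham weeks. Only loci counted in all 4 libraries gave 0 at week 2 and 1 at week 7. The authors' deposited adjusted p passed for 11, 8, 7 and 6 loci at weeks 2, 4, 5 and 7. The fit with a replicate block by pool letter called 1 at week 2, 0 at week 4, 3 at week 5 and 0 at week 7. It called 1 for the mean of weeks, 0 for the interaction and 8 among sham weeks. Over rat miRNAs the deviations of pools with the same letter correlated between -0.137 and 0.108, and the loci were not part of that check. Some loci shared 0s by letter: chrX_35821321_35821405 was at 0 in pool B of both surgeries at weeks 2, 5 and 7. Others did not: chr10_62782730_62782812 was at 0 in 5/6Nx pool B alone at week 5. Leaving out 1 pool gave 1 to 9 loci at week 2 (9 without week 2 5/6Nx pool B), 0 to 2 at week 4, 2 to 17 at week 5 (17 without week 5 sham pool B, 8 without week 5 sham pool A), 2 to 9 at week 7 (9 without week 7 sham pool B), 1 to 8 for the mean of weeks (8 without week 5 sham pool B), 0 to 4 for the interaction and 3 to 18 among sham weeks; a lone pool is assumed to vary like the other groups. The median locus share of all counts, 41.35%, was 92.08% against rat miRNA counts, 24.3% with each stretch counted once and 13.95% without repeats of miRNA counts. At a tolerance of 2% 20 loci repeated a miRNA in every library, and 0 had identical counts. Scaling on the loci alone moved the median log2 change of all entries to -0.12 for the mean of weeks and 0.115 at week 7. The cause of these differences was not tested. Of 384 loci, 161 lay at or below 10 CPM, where counts are few.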
